A study of Mus musculus with 48 samples.

Results

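The histone genes make up 83 of the 55450 genes listed in both count tables of the series. The rule that chose them uses the symbol alone and no measured value, though earlier results of these data were known. Members are every Hist1h, Hist2h, Hist3h and Hist4h gene, the linker histone genes H1f0 and H1fx, the replacement H3 genes H3f3a and H3f3b, and every H2af gene, and 2 genes with -ps in the symbol were left out. Of the 83, 69 carry a Hist symbol and are called replication-dependent here, with 6 H1, 20 H2A, 18 H2B, 12 H3 and 13 H4 genes. The other 14 are called replication-independent, with 2 H1, 10 H2A and 2 H3 genes. The Hist1h genes (56) lie on chromosome 13, the Hist2h genes (10) within 50.3 kb of chromosome 3, and the Hist3h (2) and Hist4h (1) genes on chromosomes 11 and 6.

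The series holds 48 RNA-seq libraries of C57BL/6 mouse cells that were turned into adipocytes in culture, 3 in each of 16 groups. Preadipocytes came from inguinal white adipose tissue of mice 8 to 12 weeks old and were sampled on days 0, 3, 6 and 9. Mouse embryonic fibroblasts (MEFs), embryo-derived primary cells used within passage 3, were sampled on days 0, 4, 8 and 12. Each day has a wild-type (WT) group and a group of genotype Hmgn1-/- and Hmgn2-/- (DKO), whose mice lack the nucleosome-binding proteins HMGN1 and HMGN2. After day 0 the cells received insulin, dexamethasone, IBMX, T3 and rosiglitazone, for 4 days in preadipocytes and 8 days in MEFs, and after that insulin and T3 alone. The labels name the final cells brown-like adipocytes for preadipocytes and adipocytes for MEFs. The deletions were already present in the animals and are in every cell type, and the study calls its libraries biological replicates. Whether the 3 libraries of a group came from separate animals or separate cultures is not given in the labels, so p-values measure only the spread between these libraries.

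Histones are the proteins around which DNA is wound. H2A, H2B, H3 and H4 form the nucleosome core, and the linker histone H1 binds where DNA enters and leaves it. Most histone protein is made from clustered genes that are copied in S phase, and their mRNAs usually end in a short stem-loop instead of a poly(A) tail. Replacement histones and H1f0 are made from polyadenylated mRNAs throughout the cell cycle and are known to build up in chromatin of cells that stop dividing.

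The stem-loop could be read in the annotated transcripts, and its presence bears on which members a library can hold. It was searched as a run of 16 bases that begins GGNNCT, ends AGNNCC and whose first 6 and last 6 bases pair. Of the bases between these ends, the first and the third also had to be T. In GENCODE M21 (GRCm38, the assembly also called mm10), 65 of 58797 protein-coding transcripts, or 0.111%, hold such a run, from 55 genes of which 47 are members. It was found in 46 of the 69 replication-dependent genes and in 1 of the 14 replication-independent genes, H2afx. The windows of the 5 members below are shown because their levels are described later. Each is written 5′ to 3′ on the gene's strand, with the stem-loop in capitals between 5 flanking bases.
Hist1h1c, chr13:23739507-23739532, plus strand: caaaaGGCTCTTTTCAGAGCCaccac
Hist3h2a, chr11:58955167-58955192, plus strand: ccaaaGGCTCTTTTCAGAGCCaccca
Hist1h4i, chr13:22040961-22040986, minus strand: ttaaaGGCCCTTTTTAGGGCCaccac
Hist1h4h, chr13:23531453-23531478, plus strand: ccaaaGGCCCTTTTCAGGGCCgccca
H2afx, chr9:44335235-44335260, plus strand: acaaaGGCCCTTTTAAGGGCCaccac

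The 5 windows differ in how far the annotated transcript runs on. It ends 46 bases after the stem-loop in Hist1h4h but 330 bases after it in Hist1h4i, 822 in H2afx, 840 in Hist1h1c and 1643 in Hist3h2a. Of the 46 replication-dependent genes with a stem-loop, 23 had all transcripts that hold it end within 100 bases of it. In the other 23 a transcript that holds it ran further. The polyadenylation signal AATAAA stood in the last 40 bases of any transcript in 11 of the 23 longer genes and 1 of the 23 shorter ones. That 1 was Hist1h2bp, of whose 2 transcripts only 1 holds the stem-loop. Counted by single transcripts and not by genes, the signal was in 39.3% of all protein-coding transcripts. A match is a run of letters in an annotation, not a measured end.

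Levels differed with the annotated end. Values are in CPM, the authors' RSEM estimated counts divided by library size and TMM-scaled over the 24 libraries of a cell type. The median of the mean levels over 48 libraries was 0.932 CPM for the 23 genes whose transcript runs over 100 bases past the stem-loop. It was 0.0426 CPM for the 23 that end within 100 bases and 0.0104 CPM for the 23 in which no stem-loop was found. Of these 3 sets, 11, 4 and 4 genes reached 1 CPM. Several genes of the last set have short annotated transcripts, such as Hist1h4k with 312 exon bases and Hist1h2bl with 381. A stem-loop past the annotated end would not be found. Only 28.5% of the 50-base words of Hist1h4k and 17.2% of those of Hist1h2bl occur in no other gene. CPM is not scaled for length, and the part of length, shared sequence and annotation in these differences was not tested. The highest gene without a stem-loop in the annotation was Hist1h2bc, an H2B gene, at 68.3 CPM, and the highest that ends near it was Hist1h4h at 3.22 CPM. The labels give polyA RNA and the study's methods a total RNA kit, and which holds is not settled here. The listed small RNAs without a poly(A) tail summed to 1.7 to 5.07 CPM in preadipocytes and 0.929 to 17.8 CPM in MEFs. Whether histone mRNA without a tail was lost, and how much, was not tested. The levels below are those of the transcripts these libraries held.

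**Figure D1:**
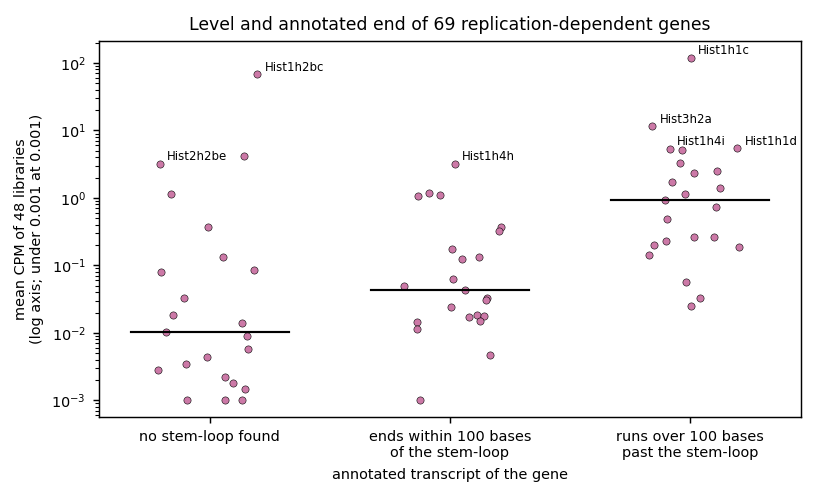
Mean level over 48 libraries (CPM, log axis, values under 0.001 drawn at 0.001) of the 69 replication-dependent genes, by the annotated end of transcripts that hold a stem-loop, where there are any. Points are genes and bars are medians of 0.0104, 0.0426 and 0.932 CPM from left to right, and Hist1h1c stands highest at 119 CPM.

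Promoter motifs were counted by class. RefSeq promoters (GRCm38.p6, 250 bases before to 50 after the start) were found for 74 members, and motifs were searched on both strands. Each member was counted once, as holding a motif if any promoter of it did, while shares of all are over single promoters. CCAAT was in every matched replication-dependent H1 (6), H2A (18), H2B (16) and H3 (10) promoter but in 3 of 12 H4 promoters. It was also in 9 of 12 replication-independent promoters, against 37.41% of all 32851 promoters. The octamer ATTTGCAT was in 7 of 18 H2A and 7 of 16 H2B promoters and in no matched replication-dependent H1, H3 or H4 promoter. It was in 1 of 12 replication-independent promoters, against 1.74% of all. TATAAA was in 35 of 62 replication-dependent and 1 of 12 replication-independent promoters, against 13.62%. The H1 box AAACACA was in 2 of 18 replication-dependent H2A, 2 of 16 H2B and 1 of 12 replication-independent promoters, against 7.18% of all. It was in 5 of 6 replication-dependent H1 promoters. In those 5, of which the 3 best detected are printed on the gene's strand because the H1 genes return in the comparisons, the box stood 42 to 64 bases before a CCAAT. Capitals mark the box and CCAAT.
Hist1h1c, chr13:23738690-23738762, plus strand: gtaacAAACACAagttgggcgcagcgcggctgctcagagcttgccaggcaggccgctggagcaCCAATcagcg
Hist1h1d, chr13:23554905-23554990, plus strand: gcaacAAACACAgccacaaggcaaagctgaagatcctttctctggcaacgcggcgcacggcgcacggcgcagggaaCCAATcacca
Hist1h1e, chr13:23622601-23622678, minus strand: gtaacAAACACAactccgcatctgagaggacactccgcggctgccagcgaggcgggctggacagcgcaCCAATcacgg

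Few members made up most of the signal. Of the 83, 29 had a mean of at least 1 CPM over 48 libraries, 12 of at least 10 and 5 of at least 100, whereas 50 of the 69 replication-dependent genes stayed under 1 CPM. In 17 members no library passed 3 counts, and 5 were at 0 in every library, namely H2afb1, H2afb2, H2afb3, Hist1h2aa and Hist1h2ba. Hist1h2aa and Hist1h2ba encode testis histones. The 83 genes summed to 932 to 1550 CPM per library in preadipocytes and 1030 to 1630 CPM in MEFs. Replication-dependent genes gave 16.3% to 29.6% of that in preadipocytes and 6.85% to 25.9% in MEFs, and Hist1h1c with Hist1h2bc made up 70.3% to 82.8% and 68.1% to 79.1% of the replication-dependent sum. By class, the replication-dependent sums ran in preadipocytes from 84.5 to 212 CPM for H1, 67.2 to 146 for H2B, 11.8 to 21.6 for H2A, 6.77 to 25.6 for H4 and 1.87 to 10.1 for H3.

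The order at the top was led by the replacement H3 genes. Mean levels over 48 libraries were 322 CPM for H3f3b, 281 for H3f3a, 153 for H1f0, 123 for H2afz (a gene for the variant H2A.Z), 119 for Hist1h1c, 68.3 for Hist1h2bc and 54.7 for H2afy (macroH2A). Ranges across libraries overlapped for every neighbouring pair in that list. Per kilobase of exon the order changed, with 103 CPM per kb in preadipocytes for H3f3b, 76.9 for Hist1h1c, 73.5 for H3f3a, 68.5 for Hist1h2bc, 65.4 for H1f0, 62.6 for H2afz and 7.61 for H2afy. In MEFs the same scale gave 113, 75.8, 86.8, 49.6, 83.3, 75.4 and 8.47 CPM per kb. H2afv, H2afj, H2afx, Hist3h2a and H2afy2 followed with mean levels of 10.9 to 18.3 CPM, and Hist1h1d, Hist1h4i and Hist1h2be with 5.12 to 5.4 CPM. H1fx, the other replication-independent linker gene, averaged 1.07 CPM.

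**Figure D2:**
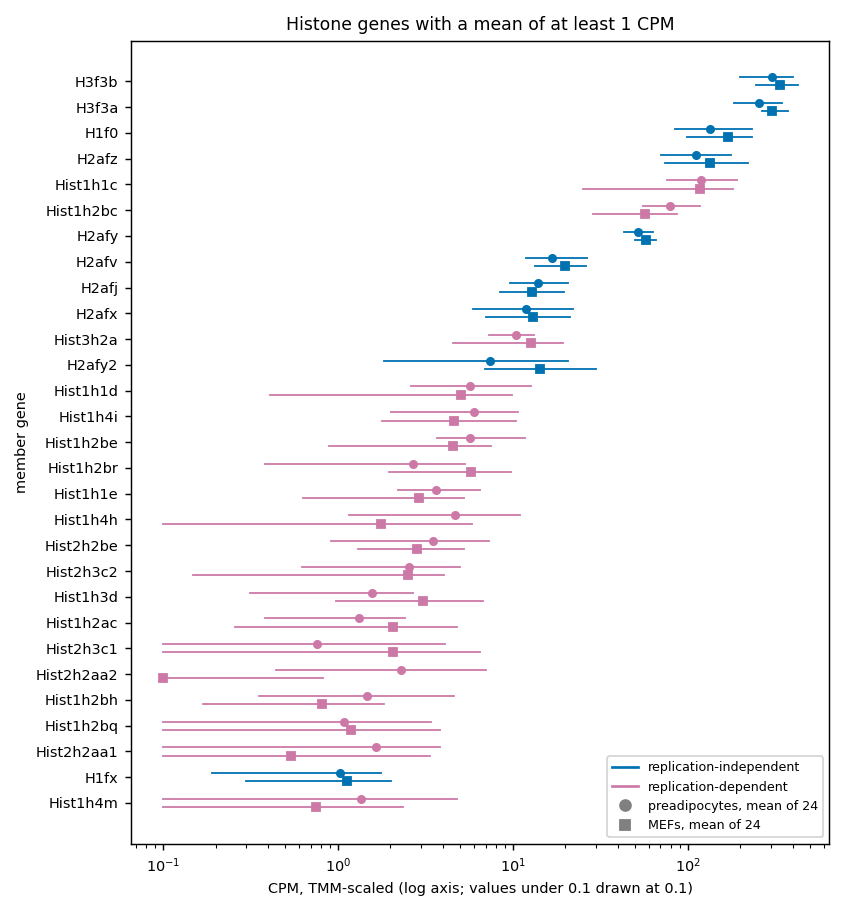
Levels of the 29 members with a mean of at least 1 CPM (log axis, values under 0.1 drawn at 0.1). Points are means of 24 libraries and lines run from the lowest to the highest library, for preadipocytes (circles) and MEFs (squares), with H3f3b at the top at 306 and 337 CPM.

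Sequence identity limits several members. By shared 50-base words, 14 members fall into 5 groups of near-copies, and 34 members have under 50% of such words to themselves, and the split of reads between copies by RSEM is uncertain there. Gm20634, a gene model that is no member, holds 100% of the 50-base words of Hist2h3c1 (H3) and of Hist2h2aa2 (H2A) and 89.4% of those of Hist2h2aa1 (H2A), so that an H3 gene and a pair of H2A genes share words with it but not with each other across class. Hist2h3c1 also shares 34.7% with Hist2h3c2. Hist1h2bq shares with Hist1h2br, and Hist1h4m with Hist1h4n. Sums over near-copies are given below where such a member was called.

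Library facts bear on all comparisons. Total counts per library ran from 18962483 to 36006696. Hmgn2 had 0 to 10 counts in DKO libraries and at least 744 in WT libraries, while Hmgn1 kept 1571 to 3493 counts in DKO libraries, and counts per gene do not show which exons they come from. The 6 adipocyte markers summed to 149 to 415 CPM in WT preadipocytes on day 0 and 24500 to 25800 on day 9, and to 909 to 1090 CPM in WT MEFs on day 0 and 16200 to 16600 on day 12. The 4 brown adipocyte markers, among them Ucp1, summed to 0 to 0.233 CPM in WT preadipocytes on day 0 and 271 to 325 on day 9. The 5 macrophage markers all had counts and summed to 2350 to 8240 CPM in MEFs and up to 7960 CPM in preadipocytes. In bulk samples fewer cells of a type and less RNA per cell cannot be told apart. Comparisons used edgeR's quasi-likelihood test on 3 against 3 libraries. Calls needed an adjusted p (Benjamini-Hochberg, over all tested genes) below 0.05 together with a fold change of at least 1.5, and "rose" and "fell" are used for called members only. Consecutive steps share a day, and genotype comparisons share their WT libraries with the steps.

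The first step in WT preadipocytes, from day 0 to day 3, raised H2A.Z, H2afx and H3f3b transcripts. Of 34 members tested, 6 rose, against 9.76% of all tested genes, and 3 fell, against 12.2%. Of 10 tested replication-independent members, H2afv, H2afx, H2afz and H3f3b rose and H2afy2 fell. The median log2 fold change was 0.46 for these 10 and -0.05 for 24 replication-dependent members, whose sign changed with quantile normalization (0.06), beside 0.01 for all genes.

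H2afv, a second gene for H2A.Z, stood at 12.3, 11.8 and 12 CPM on day 0 and at 26.5, 26.1 and 23.8 CPM on day 3 in WT preadipocytes. H2afx, the variant that is phosphorylated at DNA breaks, stood at 12.2, 8.4 and 11 CPM and then at 17.9, 20.3 and 22 CPM. Neither gene's groups overlapped, and the fitted log2 fold changes were 1.09 (SE 0.09, adjusted p = 0.00048 by edgeR) and 0.94 (SE 0.16, adjusted p = 0.00532). H2afz went from 111, 80 and 98.6 CPM to 134, 165 and 176 CPM, with a log2 fold change of 0.72 (SE 0.15, adjusted p = 0.0107). H3f3b went from 254, 232 and 237 CPM to 364, 378 and 387 CPM, with a log2 fold change of 0.65 (SE 0.08, adjusted p = 0.0018). Every day 3 library lay above every day 0 library for both genes. H3f3a, which encodes the same H3 protein as H3f3b, was not called, at 214, 183 and 202 CPM on day 0 and 214, 228 and 263 CPM on day 3.

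H2afy2, a macroH2A gene, was the called member in the other direction among replication-independent genes. Its levels in WT preadipocytes were 13.8, 12.4 and 19.8 CPM on day 0, 7.45, 7.26 and 9.41 on day 3, 3.15, 2.12 and 2.46 on day 6 and 3.24, 2.17 and 2.11 on day 9. It fell at the first step by 0.92 on the log2 scale (SE 0.20, adjusted p = 0.0138) and at the next by 1.64 (SE 0.21, adjusted p = 0.000401), with no overlap between groups either time. H2afy, the other macroH2A gene, moved little beside it, at 53.2, 57.5 and 58.3 CPM on day 0 and 56.9, 63 and 57.8 CPM on day 3.

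Among replication-dependent genes the first step raised Hist1h4i and Hist1h2bh and lowered Hist1h3b and Hist2h4. Hist1h4i, an H4 gene, stood at 5.48, 3.31 and 3.07 CPM on day 0 and at 8.64, 7.82 and 8.39 CPM on day 3, a log2 fold change of 1.07 (SE 0.24, adjusted p = 0.0133). The groups did not overlap. The other 3 were low, with means between 0.244 and 1.14 CPM, and each lost its call in 8 to 11 of 12 alternative settings. Hist1h1c had an adjusted p of 0.0206 but a fold of only 1.34, with 121, 112 and 102 CPM on day 0 and 92.4, 81 and 76 CPM on day 3.

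Genes around histone synthesis were read at the same step, in which 9.76% of all tested genes rose and 12.2% fell. Of the 24 genes of a DNA replication list (helicase, polymerase and nucleotide synthesis genes and their regulators), 19 rose, with a median log2 fold change of 0.87. Slbp, whose product binds the stem-loop, rose by 0.66 (SE 0.14, adjusted p = 0.0125), the only called gene of 11 in the histone mRNA processing list. Of 23 chaperone and deposition genes, 4 rose, namely Asf1b (1.17), Nasp (0.77), Chaf1a (0.73) and Ep400 (0.60 on the log2 scale). Asf1b and Nasp carry newly made H3 and H4, and Chaf1a is a subunit of the chromatin assembly factor CAF-1.

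**Figure D3:**
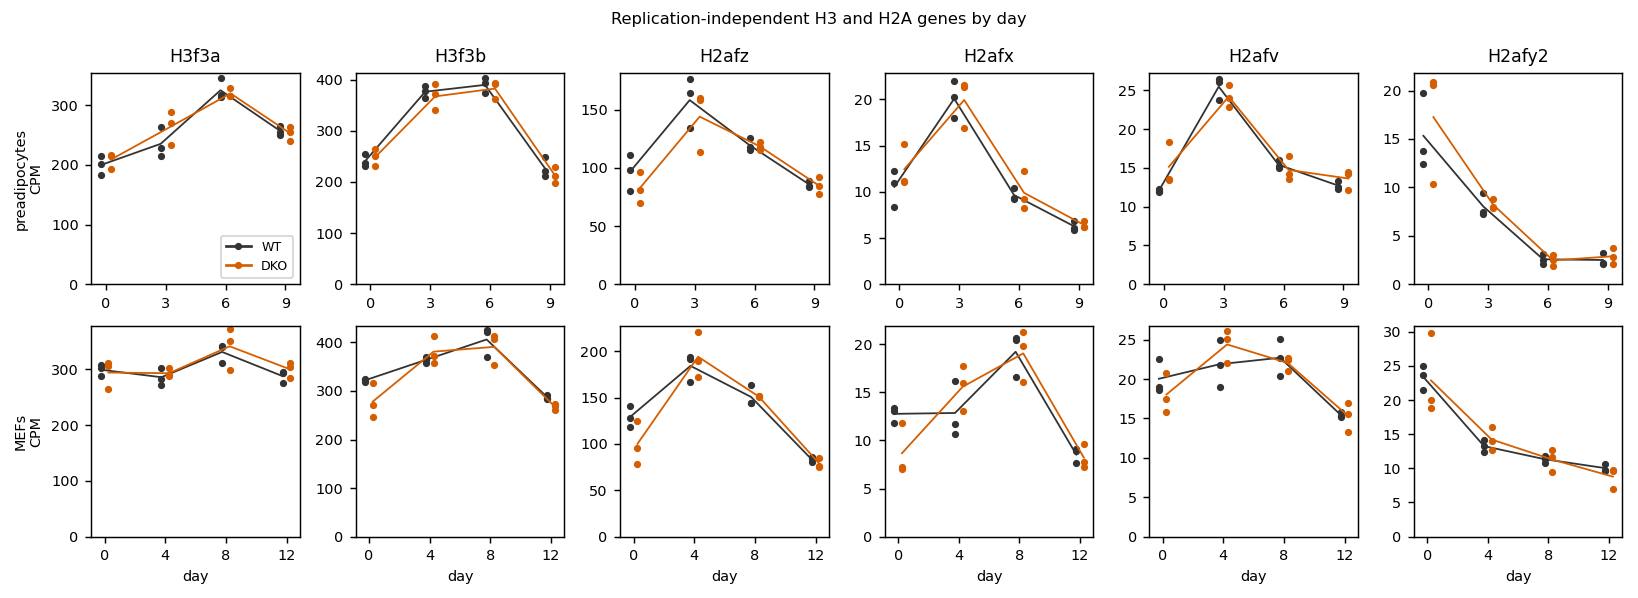
Levels (CPM) of 6 replication-independent genes by day in preadipocytes (top row) and MEFs (bottom row). Points are libraries (3 per genotype and day) and lines join group means, WT in black and DKO in orange, and H2afv in WT preadipocytes goes from a mean of 12.1 on day 0 to 25.5 on day 3.

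From day 3 to day 6 in WT preadipocytes, 6 of 35 tested members rose, against 21.9% of all tested genes, and 7 fell, against 24%. The members that fell included H2afy2, H2afx and H2afv, and those that rose were all replication-dependent. H2afx fell to 9.35, 10.4 and 9.2 CPM, by 1.06 on the log2 scale (SE 0.11, adjusted p = 0.000206). H2afv fell to 15, 15.2 and 16 CPM, by 0.73 (SE 0.09, adjusted p = 0.000341). On day 6 H2afx was within its day 0 range, and H2afv was above its highest day 0 library. Hist1h2ac, Hist1h2bj, Hist1h4m and Hist1h2bq also fell, from means of 0.814 to 2.24 CPM on day 3 to means of 0.313 to 1.11 CPM. The call was lost in 6 of 12 alternative settings for Hist1h2ac, 3 for Hist1h2bj, 5 for Hist1h4m and 7 for Hist1h2bq. For Hist1h4m and Hist1h4n together the log2 difference was -1.31 (SE 0.52, adjusted p = 0.0595), which was not called. For Hist1h2bq and Hist1h2br together the log2 difference was -0.22 (SE 0.21, adjusted p = 0.398).

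Of the members that rose, Hist1h1d, a linker H1 gene, was at 4.49, 4.7 and 4.77 CPM on day 3 and 11, 8.01 and 7.38 CPM on day 6, a log2 fold change of 0.92 (SE 0.18, adjusted p = 0.00355). Hist2h2be, an H2B gene, went from 1.54, 2.05 and 2.34 CPM to 4.36, 4.24 and 3.39 CPM, a log2 fold change of 1.01 (SE 0.22, adjusted p = 0.00589). Hist1h2bh, also H2B, went from 0.925, 1.02 and 1.48 CPM to 2.59, 2.46 and 2.66 CPM, and Hist1h4h from 3.92, 2.05 and 3.23 CPM to 4.25, 9.82 and 6.33 CPM. In all 4 the groups did not overlap, by a narrow margin for Hist1h4h, which lost its call in 5 of 12 alternative settings. Hist2h3c1 was listed at 0 in every WT library of days 0 and 3 and at 1.31, 4.08 and 2.22 CPM on day 6, and Hist2h2aa1 at 0, 0 and 0.954 CPM on day 3 and 1.99, 3.85 and 3.67 CPM on day 6. Hist2h2aa1 lost its call in 7 of 12 alternative settings. The sum of both genes with Hist2h2aa2 and Gm20634 differed by -0.09 on the log2 scale (SE 0.20, adjusted p = 0.72), but Gm20634 held 86.2% to 95.2% of that sum on day 3 and 60.3% to 81.1% on day 6. The sum is therefore mainly a value of Gm20634, and how reads were divided between it and the members was not tested.

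The abundant linker H1 genes were higher on day 6 by less than the fold threshold. Hist1h1c was at 134, 129 and 110 CPM on day 6, above every day 3 library, with a log2 difference of 0.58 (SE 0.11, adjusted p = 0.00276) that just missed the fold threshold at 1.49-fold. H1f0, the linker gene linked to arrest and differentiation, was at 161, 157 and 143 CPM after 112, 112 and 138 CPM, a log2 difference of 0.35 (SE 0.11, adjusted p = 0.0257). All 24 DNA replication genes fell at the same step (median -1.47), while the 25 replication-dependent histone genes tested had a median of 0.04, which library-size scaling turned to -0.10 in a step where that scaling moved the median of all genes by -0.14. Chaf1a, Chaf1b, Asf1b, Ssrp1, Ep400, Srcap and Nap1l1 fell among the 23 chaperone genes, by 0.59 to 1.87, in a step where 24% of all tested genes fell. Without WT PRE day 6 replicate 2, 8 members were called in place of 13. Macrophage markers went from 54.9 to 198 CPM on day 3 to 4680 to 7960 CPM on day 6 in WT, and their part in these differences was not tested.

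From day 6 to day 9 in WT preadipocytes called members were all lower. Of 30 tested members 11 fell, against 6.07% of all tested genes, and none rose, against 11.2% (21 members had an unadjusted p under 0.05, and DESeq2 called 10). Of 20 tested replication-dependent genes 9 fell, with a median log2 fold change of -0.75 beside 0 for all genes, and H3f3b and H2afx fell of 10 replication-independent genes, with a median of -0.39. Neither median changed sign under 3 other scalings.

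Hist1h4i, after 7.93, 9.93 and 7.75 CPM on day 6, was at 3.03, 2.78 and 2.01 CPM on day 9, a fall of 1.73 on the log2 scale (SE 0.18, adjusted p = 0.000207). H3f3b fell from 402, 393 and 374 CPM to 249, 221 and 211 CPM, by 0.80 (SE 0.08, adjusted p = 0.00015). Hist1h2bh fell to 0.679, 0.652 and 0.862 CPM, by 1.83 (SE 0.21, adjusted p = 0.000321). No day 9 library of these 3 genes reached its lowest day 6 library. Hist1h2br fell from 3.94, 4.74 and 4.03 CPM to 0.627, 1.13 and 0.431 CPM, and with its copy Hist1h2bq the sum also fell, by 1.57 (SE 0.22, adjusted p = 0.000901). The other called members were Hist1h1d, Hist1h1e, Hist1h2be, Hist1h2ac, Hist2h3c2, Hist1h3d and H2afx, with falls of 0.63 to 1.74. Of these, Hist1h2ac lost its call in 9 of 12 alternative settings, the replicate block among them, Hist1h1e in 7, Hist1h1d in 5, Hist2h3c2 in 4 and Hist1h2be in 1. Hist1h2bc, the most abundant H2B gene, was at 79.5, 104 and 83.7 CPM on day 6 and 65.8, 67.4 and 64.9 CPM on day 9, 1.36-fold lower and under the threshold (adjusted p = 0.00552). Hist1h1c was not called, at 141, 113 and 111 CPM on day 9, and neither were H1f0 (130, 114 and 116 CPM, 1.3-fold lower, adjusted p = 0.00549) and H3f3a (251, 265 and 254 CPM, 1.28-fold lower, adjusted p = 0.00265), whose folds were under the threshold. Of 24 DNA replication genes 12 fell, against 6.07% of all tested genes, and so did Asf1b, Nasp and the centromeric histone chaperone gene Hjurp.

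In WT MEFs the first step, from day 0 to day 4, lowered transcripts of linker histones and of some core histone genes, 6 of them replication-dependent and 2 (H1f0 and H2afy2) replication-independent. Of 29 tested members 8 fell, against 18.4% of all tested genes, and none rose, against 14.9% (13 members had an unadjusted p under 0.05, and DESeq2 called 10). They were Hist1h1c, Hist1h1d and H1f0 of H1, Hist3h2a and H2afy2 of H2A, Hist2h2be of H2B, Hist2h3c2 of H3 and Hist2h4 of H4. The median log2 fold change was -0.92 for 19 replication-dependent and 0.08 for 10 replication-independent members, beside 0.04 for all genes, and library-size scaling, which moved the median of all genes by 0.12, gave -0.82 and 0.19. The 6 preadipocyte or fibroblast markers, Col1a1 among them, summed to 10200 to 11600 CPM in WT MEFs on day 0, 2550 to 4540 on day 4, 4010 to 8240 on day 8 and 6970 to 7290 on day 12, and their part in the histone differences was not tested.

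Hist1h1c stood at 158, 135 and 168 CPM on day 0 and at 73.4, 26.6 and 25.3 CPM on day 4, a fall of 1.87 on the log2 scale (SE 0.44, adjusted p = 0.0129). Hist3h2a stood at 17.6, 19.5 and 18.7 CPM and then at 9.87, 4.54 and 4.63 CPM, a fall of 1.53 (SE 0.30, adjusted p = 0.00582). H1f0 stood at 186, 208 and 198 CPM and then at 146, 101 and 99.9 CPM, a fall of 0.76 (SE 0.15, adjusted p = 0.00541). Every day 4 library was lower than every day 0 library for these 3, and replicate 1 was the highest day 4 library each time. The adipocyte marker sum of that replicate was 5690 CPM, against 1950 and 1840 CPM in the others. Hist1h1d went from 6.51, 4.68 and 7.41 CPM to 3.14, 0.409 and 0.778 CPM, a fall of 2.05 (SE 0.67, adjusted p = 0.042), but the call was lost in 6 of 12 alternative settings, each day 0 library left out among them, over which the log2 value ran from -3.37 to -1.62. H2afy2 went from 21.4, 25 and 23.7 CPM to 12.4, 14.1 and 13.3 CPM, a fall of 0.81 (SE 0.10, adjusted p = 0.000661). In H2afy2 replicate 1 was the lowest day 4 library. H2afz was higher on day 4, at 167, 192 and 194 CPM after 128, 141 and 118 CPM, 1.44-fold and so under the threshold (adjusted p = 0.00293).

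The count depends on single libraries. Hist2h4 lost its call in 8 of 12 alternative settings, Hist2h2be in 7, Hist2h3c2 in 5 and Hist1h1c in 1. Without WT MEF day 4 replicate 1, 18 members were called, and without WT MEF day 0 replicate 1, 2 or 3 the counts were 4, 5 and 4. Of the DNA replication genes 10 of 24 rose at the same step, with a median of 0.52, beside 14.9% of all tested genes. Of the chaperone genes only Hjurp (0.76) and Chaf1b (0.59) rose, beside the same share. The sum of Hist2h3c1, Hist2h2aa1, Hist2h2aa2 and Gm20634 fell by 1.71 (SE 0.56, adjusted p = 0.0446), with 78.6% to 99.4% of it in Gm20634 over these 6 libraries.

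From day 4 to day 8 in WT MEFs no member of 30 tested was called by edgeR, and neither was any other gene (0%), while 12 members had an unadjusted p under 0.05 and DESeq2 called 1 member. The median was 1.13 for 20 replication-dependent and 0.18 for 10 replication-independent members, beside 0 for all genes and a shift of -0.14 with library-size scaling. Hist1h1c was at 110, 61.6 and 109 CPM on day 8, with a log2 difference of 1.15 (SE 0.47, adjusted p = 0.34) from day 4 and overlapping groups. Without WT MEF day 4 replicate 1, 5 members were called.

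Within these days Hist1h1c stood in the same order as the adipocyte markers. On day 4 the adipocyte marker sum was 5690, 1950 and 1840 CPM in the WT libraries and 4460, 2650 and 7140 CPM in the DKO libraries, beside 73.4, 26.6 and 25.3 CPM and 59.3, 40.7 and 95.8 CPM for Hist1h1c. All 6 libraries had the same rank by both. On day 8 the marker sum was 9070, 3690 and 8830 CPM in WT and 15300, 11800 and 4220 CPM in DKO, beside 110, 61.6 and 109 CPM and 149, 138 and 80.5 CPM, again with 6 equal ranks. On days 0 and 12 the number of equal ranks was 1 and 2. In preadipocytes it was 0 on days 0 and 3, 3 on day 6 and 1 on day 9. On MEF day 12 and preadipocyte day 6 both measures placed every DKO library above every WT library. Counts of equal ranks therefore understate the shared order on those days. The order was not shared on every day. On MEF day 0 WT replicate 3 was highest by Hist1h1c (168 CPM) and lowest by the markers (909 CPM). DKO replicate 2 of that day was lowest by Hist1h1c (85.2 CPM) and highest by the markers (2120 CPM). On preadipocyte day 9 WT replicate 1 was highest by Hist1h1c (141 CPM) and lowest by the markers (24500 CPM). The macrophage marker sum ran nearly the other way on day 8, at 3250, 7780 and 3230 CPM in WT and 2460, 3800 and 5920 CPM in DKO, and on day 4 it was 4070, 5620 and 5250 CPM in WT and 4790, 3880 and 3260 CPM in DKO. Hist1h1c was not alone in this order. The replication-dependent H2B sum had nearly the same one on day 4, at 76.5, 37.8 and 44.3 CPM in WT and 66.3, 50.7 and 77.1 CPM in DKO. On day 8 that sum was 95.5, 73.5 and 90.1 CPM in WT and 106, 111 and 74.4 CPM in DKO. The part of either marker list in the Hist1h1c level or in the H2B sum was not tested.

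**Figure D4:**
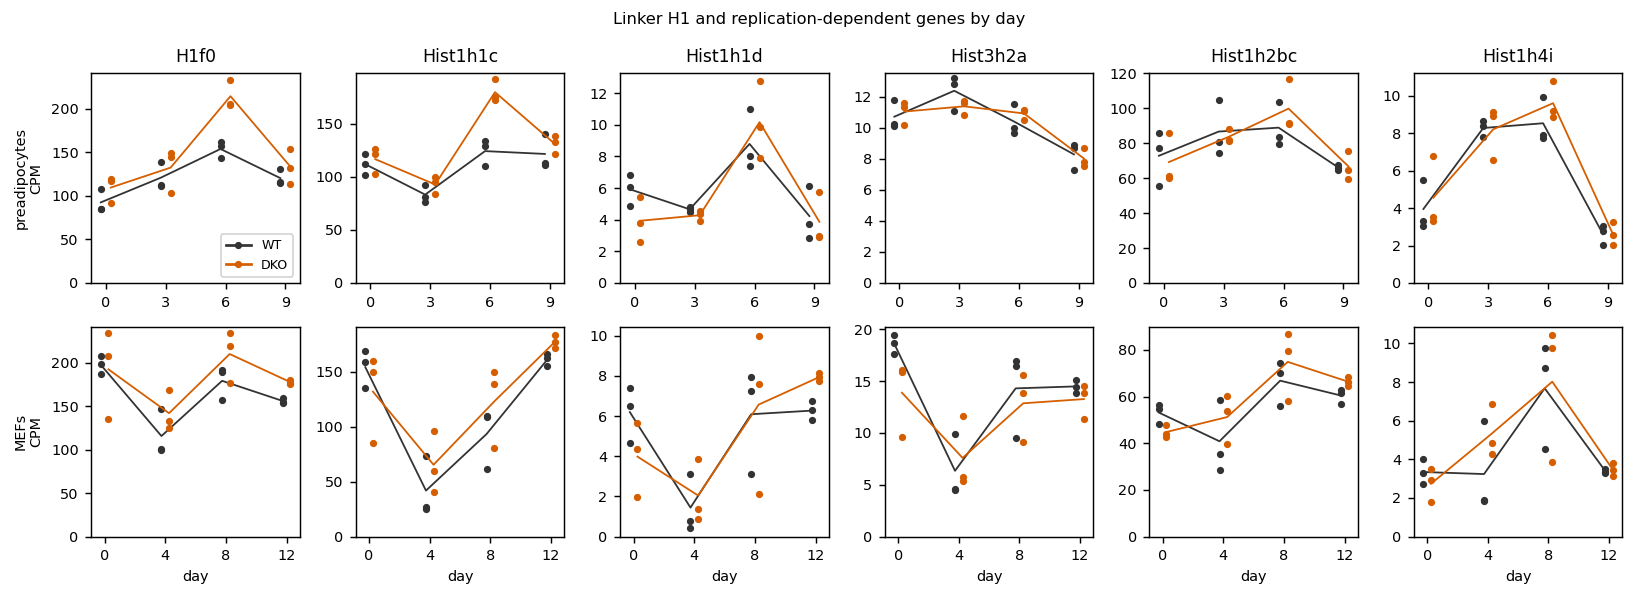
Levels (CPM) of H1f0 and of 5 replication-dependent genes by day in preadipocytes (top row) and MEFs (bottom row). Points are libraries (3 per genotype and day) and lines join group means, WT in black and DKO in orange, and the WT mean of Hist1h1c in MEFs goes from 154 CPM on day 0 to 41.8 on day 4 and 161 on day 12.

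From day 8 to day 12 in WT MEFs, 1 of 32 tested members rose, against 12.4% of all tested genes, and 7 fell, against 9.09%. Hist1h1c rose to 166, 162 and 155 CPM, above every day 8 library, with a log2 fold change of 0.71 (SE 0.22, adjusted p = 0.0433), and this call was lost in 9 of 12 alternative settings. H2afz fell from 144, 164 and 145 CPM to 85.5, 80.7 and 83.4 CPM, by 0.94 (SE 0.07, adjusted p = 0.000211). H2afx fell from 20.4, 16.6 and 20.6 CPM to 8.86, 7.66 and 9.06 CPM, by 1.26 (SE 0.12, adjusted p = 0.000546). Day 12 libraries lay close together and below all day 8 libraries for both. H2afv fell by 0.64 (SE 0.10, adjusted p = 0.00282), to 15.8, 15.3 and 15.2 CPM. Hist1h4i fell to 3.35, 3.52 and 3.3 CPM after 8.74, 4.53 and 9.76 CPM, by 1.26 (SE 0.29, adjusted p = 0.0142). Hist1h2br, Hist1h3d and Hist1h2bg fell by 1.18 to 1.66, with the call lost in 0, 5 and 6 of 12 alternative settings, while H2afv lost it in 2 and Hist1h4i in 3, and the sum of Hist1h2bq and Hist1h2br fell by 1.07 (SE 0.12, adjusted p = 0.000988).

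Other histone-related genes fell at this last step, in which 9.09% of all tested genes fell. DNA replication genes fell in 23 of 24 cases (median -1.39). Slbp fell by 0.78, Srrt by 0.60 and Zfp473, a component of the processing complex, by 1.08. Of 23 chaperone genes Chaf1a, Chaf1b, Asf1b, Nasp, Hjurp and Npm1 fell, by 0.78 to 1.62. The median of the 22 replication-dependent histone genes tested was -0.09 and that of the 10 replication-independent genes -0.55, beside -0.02 for all genes. Without WT MEF day 8 replicate 1 or 3 or day 12 replicate 2, 5 members were called in place of 8, and without day 12 replicate 1 or 3, 4 members.

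Replication-independent genes of both systems can be set side by side over the days. H3f3b had its highest WT group mean on the third sampled day in both, 390 CPM in preadipocytes and 406 CPM in MEFs. H2afx peaked on day 3 in WT preadipocytes (20.1 CPM) and on day 8 in WT MEFs (19.2 CPM). H2afy2 was highest on day 0 in both, at 15.3 and 23.4 CPM. The tables were normalized separately, and no test between cell types was made.

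Loss of HMGN1 and HMGN2 was then compared with WT on each day, the study's question being how these proteins shape adipocyte differentiation. In preadipocytes on day 0 no member of 35 tested was called, against 0.218% of all tested genes, with 1 member at an unadjusted p under 0.05. On day 3 it was 0 of 33, against 0.337%, with 0 at that p. On day 6 it was 1 of 36, against 11.6%, with 3 at that p. On day 9 it was 0 of 30, against 1.24%, with 0 at that p. DESeq2 called 0, 0, 1 and 0 members on these days. Of all genes called on day 6, 43.5% were higher in DKO, or 28.8% with library-size scaling. On day 9 the share higher was 37.7%, or 16.2% with that scaling.

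The called member on day 6 was Hist2h2be, at 4.36, 4.24 and 3.39 CPM in WT and 7.35, 5.71 and 7.17 CPM in DKO preadipocytes. It rose by 0.72 on the log2 scale (SE 0.17, adjusted p = 0.0233), and the groups did not overlap. The call was absent without WT replicate 3, DKO replicate 1 or DKO replicate 3 and in 1 fit over all 24 libraries, and 2 members were called without WT replicate 2. The log2 fold change of Hist2h2be ran from 0.62 to 0.86 over the alternatives.

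Both abundant linker genes were higher in DKO on day 6 by less than 1.5-fold. Hist1h1c was at 134, 129 and 110 CPM in WT and 172, 192 and 175 CPM in DKO, a log2 difference of 0.50 (SE 0.09, adjusted p = 0.0106). H1f0 was at 161, 157 and 143 CPM in WT and 233, 204 and 205 CPM in DKO, a log2 difference of 0.44 (SE 0.09, adjusted p = 0.0147). No DKO library of either gene was as low as the highest WT library. All 6 tested H1 genes had a fitted value above 0 on that day, from 0.17 to 0.50 with a median of 0.38, beside -0.01 for all genes, and the median was 0.28 with library-size scaling. H3f3b (-0.06, SE 0.08, adjusted p = 0.628), H3f3a (-0.06, SE 0.08, adjusted p = 0.629) and H2afz (-0.05, SE 0.07, adjusted p = 0.68) were not called, and their groups overlapped.

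Single genes of other lists were called on that day too, beside 11.6% of all tested genes. Of the 24 genes of the DNA replication list Mcm5, Rrm2 and Tk1 fell, and of the chaperone list Chaf1a fell by 0.64 (adjusted p = 0.0264). Whether either list as a whole differed from the share of all tested genes was not tested. Adipocyte markers summed to 19400 to 23400 CPM in WT and 25700 to 31700 CPM in DKO, and macrophage markers to 4680 to 7960 CPM in WT and 1760 to 3630 CPM in DKO, and their part in the linker gene differences was not tested.

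Whether the DKO effect varied over days was tested in 1 model over the 24 libraries of a cell type. None of 41 members passed in preadipocytes, against 2.08% of all tested genes, with 2 members at an unadjusted p under 0.05 (Hist1h4j, 0.0206, and Hist1h1c, 0.0245, adjusted p = 0.183 and 0.197). None of 36 passed in MEFs, against 0.0177%, with 3 at an unadjusted p under 0.05 (Hist2h3c1, Hist1h2bq and H2afx), and DESeq2 called 1. With the replicate number as a block, Hist1h1c was called in preadipocytes, the 1 member that was. On the other days Hist1h1c differed between genotypes in preadipocytes by 0.06 (SE 0.10) on day 0, 0.16 (SE 0.10) on day 3 and 0.07 (SE 0.11) on day 9.

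In MEFs no member was called on day 0 (31 tested, against 0.102% of all tested genes, 3 at an unadjusted p under 0.05), day 4 (29 tested, against 0.0905%, 0 at that p) or day 8 (34 tested, against 0.0595%, 1 at that p), and DESeq2 called 1, 0 and 0. On day 0, 2 members were called without DKO MEF day 0 replicate 1. On day 12, 3 of 32 members were called, against 7.98%. The share of called genes that were higher in DKO on day 12 was 49.2%, or 38.5% with library-size scaling.

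On day 12 the called members were a pair of near-copies and an H3 gene. Hist1h2br was at 3.45, 4.21 and 3.61 CPM in WT and 6.59, 6.33 and 6.63 CPM in DKO MEFs, a rise of 0.76 on the log2 scale (SE 0.15, adjusted p = 0.000772). Its copy Hist1h2bq was at 1.58, 0.69 and 0.924 CPM in WT and 0.042, 0.309 and 0 CPM in DKO, a fall of 3.15 (SE 0.68, adjusted p = 0.00229). Neither gene's groups overlapped, but the sum of both differed by only 0.44 (SE 0.13, adjusted p = 0.0188), under the fold threshold. Hist1h3d was at 2.46, 2 and 2.24 CPM in WT and 1.56, 1.39 and 0.978 CPM in DKO, a fall of 0.77 (SE 0.26, adjusted p = 0.0324) that was lost in 6 of 12 alternative settings. With copies summed 1 member was called, and in 1 fit over all MEF libraries none.

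Abundant genes differed by small folds on that day, and its libraries lay close together. H1f0 was at 160, 153 and 155 CPM in WT and 176, 180 and 177 CPM in DKO, 1.12-fold higher (adjusted p = 0.00394). Hist1h1c was at 166, 162 and 155 CPM in WT and 171, 183 and 176 CPM in DKO, 1.08-fold higher (adjusted p = 0.0488). H3f3b was at 283, 292 and 286 CPM in WT and 261, 274 and 268 CPM in DKO, 1.09-fold lower (adjusted p = 0.0237). None of these groups overlapped, and none of the folds reached 1.5. The 6 tested H1 genes had fitted values of 0.11 to 0.32, with a median of 0.28, or 0.22 with library-size scaling. Adipocyte markers summed to 16200 to 16600 CPM in WT and 24700 to 25900 CPM in DKO, and macrophage markers to 3770 to 3820 CPM in WT and 2350 to 2710 CPM in DKO. Their part in these differences was not tested.

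On the earlier MEF days the errors were wider. On day 4 Hist1h1c differed by 0.64 (SE 0.51, adjusted p = 0.842) and on day 8 by 0.37 (SE 0.31, adjusted p = 0.786), so a difference of the size seen in preadipocytes on day 6 was not detectable there. On day 0 Hist2h3c1 was listed at 0 in all 3 WT libraries and at 2.76, 3.08 and 4.78 CPM in DKO (adjusted p = 0.0637). Its words all occur in Gm20634 as well, and Gm20634 held 97.4% to 99.4% of the sum of the 4 genes in WT and 79.8% to 90.9% in DKO. That sum differed by -0.19 (SE 0.27, adjusted p = 0.789) and says little of Hist2h3c1 alone.

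**Figure D5:**
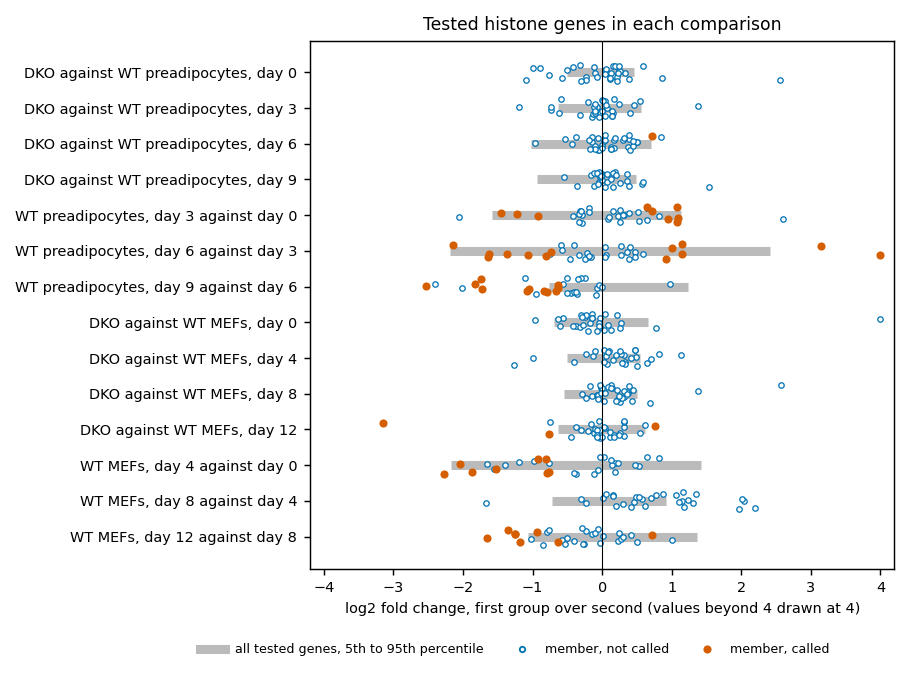
Log2 fold changes of the tested members in each of 14 comparisons (values beyond 4 drawn at 4). Open points are members that were not called, filled points called members, and grey bars span the 5th to 95th percentile of all tested genes, so that 1 of 36 members is filled for DKO against WT preadipocytes on day 6 and 11 of 30, all to the left of 0, for day 9 against day 6.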

How the data were processed

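The authors deposited RSEM expected counts per gene, one table for preadipocytes and one for MEFs. The submitters' processing notes name bcl2fastq 2.17, cutadapt 1.18, STAR 2.7.0f and RSEM 1.3.0 with mm10, and the study's methods a stranded total RNA kit. Expected counts (5.49% to 7.9% not whole per library) were rounded. Every column was mapped to a labelled sample, and 0 columns were left unused. Genes passing filterByExpr were fitted with edgeR 4.0.16 (R 4.3.3, TMM, robust quasi-likelihood) on the 6 libraries of a comparison, and the interaction on the 24 libraries of a cell type. The scripts were tested on simulated data. Alternatives were DESeq2 1.42.0, limma 3.58.1 (voom, quantile normalization), library-size scaling, no low-count filter, 1 fit over all libraries, the replicate number as a block, each library left out, and near-copies (at least 80% of 50-base words shared) summed, the last chosen after seeing the data.

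Members and lists were chosen with earlier results of these data known. Named were replication-independent members with at least 1 CPM in 12 of the 24 libraries of a table, the 3 highest Hist genes per class, up to 3 called members per direction and comparison with the smallest p and no overlap, and further members that make up counts; other called members were named after their values were seen. Replicates of a group differed by 2.11 to 154 chi-square per degree of freedom, and no library was counted as a repeat. Low values were 2.11 for WT MEF day 8 replicates 1 and 3, which differed from replicate 2 by 82.2 and 88.1. The 3 pairs of WT MEF day 12 gave 2.14 to 3.42. Whether such close libraries came from 1 culture was not tested, and p-values there rest on their narrow spread. Replicate numbers share no stated animal. By the correlation of same-numbered deviations (each over 0.1) they paired only WT preadipocytes of days 6 and 9 (0.453, 0.267 and 0.13), where the block gave 12 called members against 11.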

Additional observations from a re-analysis of the deposited data

How the results depend on the processing

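Of 53 calls of a member in a comparison, 25 held in every alternative; over 636 pairs of a call and a setting, 485 kept the call, 151 lost it and 0 reversed. Counts of called members moved by over 1.5 times as follows, and the cause was not tested. For DKO against WT preadipocytes on day 6 (1 called), 1 fit over all libraries gave 0 and leaving out a library 0 to 2. For WT preadipocytes, day 6 against day 3 (13), leaving out a library gave 8 to 12. For DKO against WT MEFs on day 0 (0), DESeq2, limma-voom with quantile normalization, no filter and 1 fit over all libraries each gave 1, and leaving out a library 0 to 2. For DKO against WT MEFs on day 12 (3), 1 fit over all libraries gave 0 and summed copies 1. For WT MEFs, day 4 against day 0 (8), no filter gave 4 and leaving out a library 4 to 18. For day 8 against day 4 (0), DESeq2 gave 1 and leaving out a library 0 to 5. For day 12 against day 8 (8), leaving out a library gave 4 to 12. For the DKO effect that varies over days, the replicate block gave 1 member in preadipocytes (Hist1h1c) in place of 0, and DESeq2 gave 1 in MEFs in place of 0. The block changed no other count by over 1.5 times; outside WT preadipocytes of days 6 and 9 the samples share only a number. Depth limits the low members: 17 of 83 had at most 3 counts in every library.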
